A study of Mus musculus with 4 samples.

Results

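The genes of transforming growth factor beta (TGF-beta) signalling at the cell surface and in the matrix were followed in stromal cells of the mouse marrow. The set comprised the 3 ligand genes Tgfb1, Tgfb2 and Tgfb3, the 3 receptor genes Tgfbr1, Tgfbr2 and Tgfbr3, and the 4 latent TGF-beta binding protein genes Ltbp1, Ltbp2, Ltbp3 and Ltbp4. They were taken by name, 10 rows of the 17230 in the count table. All 10 passed the low-count filter that left 14330 genes for testing.

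RNA was sequenced in bulk from cells sorted from femurs at postnatal day 21, in 2 libraries of each of 2 groups. Every mouse carried GFP at an allele of Cxcl12, written Cxcl12(GFP/+), and a Cre-dependent tdTomato at R26R(tdTomato/+), and had received tamoxifen at embryonic day 12.5. The Hes1-derived group (replicates 1 and 3) also carried Hes1(CreER/+), and the Fgfr3-derived group (replicates 2 and 3) also carried Fgfr3-iCreER. tdTomato therefore marks descendants of cells in which the Hes1 or the Fgfr3 driver was active at the time of the pulse, and the series title gives fetal perichondrium and chondrocytes as the origins compared. The cell type labels call the sorted cells CXCL12-abundant reticular (CAR) cells, positive for GFP and tdTomato, while the extraction protocol names tdTomato alone and also a single-cell 10X platform. The series title gives bulk sequencing, its design text SMARTer amplification, and the count table has 1 column per library, so the values are treated as bulk. Where values of both libraries of a group are given, they come with replicate 1 before 3 for the Hes1-derived group and replicate 2 before 3 for the Fgfr3-derived group. Driver allele and origin cannot be told apart. Whether a library holds RNA from 1 animal or from several is not given in the labels, so the p-values below measure the spread between these libraries only, which may be technical.

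TGF-beta ligands are made as precursors that are cut into the growth factor and a propeptide, which stay bound to each other in a latent complex. Latent TGF-beta binding proteins link that complex to the matrix, and integrins or proteases release the growth factor from it. The freed ligand binds the type II receptor, which recruits and phosphorylates the type I receptor, and the signal passes to SMAD transcription factors. Bone matrix is a large store of latent TGF-beta. In bone the growth factor is known for drawing osteoblast precursors to sites of resorption and for restraining late osteoblast differentiation.

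Promoter sequences are shown for Tgfb2 and Ltbp1, which were lower in Hes1-derived libraries, and for Tgfb1, the ligand gene that did not pass the test. Each is the 250 bases before the RefSeq transcript start, on the strand of the gene, from build GRCm38.p6. Tgfb2 lies at chr1:186705990-186706239 on the minus strand, Ltbp1 at chr17:75005279-75005528 on the plus strand, and Tgfb1 at chr7:25686752-25687001 on the plus strand. Capitals mark every match on either strand to TATAAA (the TATA box), TGACGTCA (the cyclic AMP response element), GGGCGG (the GC box), CAGAC (the SMAD box), TGANTCA (the AP-1 site) or TGTGGT (a RUNX site), and in these 3 sequences no match overlapped another.
Tgfb2: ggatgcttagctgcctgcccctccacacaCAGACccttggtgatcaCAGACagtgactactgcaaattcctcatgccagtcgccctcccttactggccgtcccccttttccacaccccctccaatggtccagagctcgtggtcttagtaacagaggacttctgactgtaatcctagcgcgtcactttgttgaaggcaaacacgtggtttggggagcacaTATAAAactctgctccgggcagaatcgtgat
Ltbp1: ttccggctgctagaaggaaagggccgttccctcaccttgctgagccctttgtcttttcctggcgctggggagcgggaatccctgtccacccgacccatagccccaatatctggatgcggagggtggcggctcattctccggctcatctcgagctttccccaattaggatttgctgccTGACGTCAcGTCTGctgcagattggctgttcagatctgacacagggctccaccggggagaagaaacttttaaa
Tgfb1: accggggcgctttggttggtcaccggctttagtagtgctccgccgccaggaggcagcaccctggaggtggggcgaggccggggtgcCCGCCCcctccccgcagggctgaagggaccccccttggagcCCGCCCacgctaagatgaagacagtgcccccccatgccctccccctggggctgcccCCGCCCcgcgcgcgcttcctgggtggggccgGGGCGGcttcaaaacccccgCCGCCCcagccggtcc

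The Tgfb2 sequence held a TATA box that began 31 bases before the start, and SMAD boxes 204 and 221 bases before it. The Ltbp1 sequence shown held a cyclic AMP response element 73 bases before the start and a SMAD box 64 bases before it. Another Ltbp1 entry, at chr17:75178531-75178780, has its start 173213 bases from the annotated gene start. That entry held SMAD boxes 148 and 97 bases and RUNX sites 71 and 33 bases before its start, and no cyclic AMP response element. The Tgfb1 sequence held 5 GC boxes and no match to the other motifs. Its GC content was 75.2%, against 53.6% for Tgfb2 and 56.8% for Ltbp1. Among 32851 RefSeq promoters of the same length, 12.4% held TATAAA, 1.55% the cyclic AMP response element, 32.7% the GC box, 42.2% the SMAD box, 6.75% the AP-1 site and 14% the RUNX site. Of the 10 genes 8 had a promoter entry, with 12 entries in all, of which 7 held a SMAD box, 6 a GC box and none an AP-1 site. Tgfb3 and Tgfbr3 had no entry. The entries are not all separate sequences. Those of Ltbp4 at chr7:27333649-27333898 and chr7:27333664-27333913 share most of their bases, and both held GC boxes.

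The libraries held between 22745128 and 26804832 counted reads. All 20 CAR cell markers were read in every library, with sums of 14516 to 22479 CPM (the usual depth-scaled read count, here with trimmed mean of M-values, or TMM, factors) in Hes1-derived and 23422 to 35532 CPM in Fgfr3-derived libraries, and 3 of them were lower in Hes1-derived libraries and none higher (6 lower and none higher at an unadjusted p under 0.05; 7 and 0 with DESeq2). Markers of blood cells moved the other way. Pan-leukocyte markers summed to 5402 and 6276 CPM in Hes1-derived and to 1500.1 and 3179 CPM in the others, with 6 of 10 higher, and 10 of 10 B lymphocyte and 7 of 8 erythroid markers were higher. Of the other blood lists, 2 of 10 monocyte and macrophage markers were higher (7 at an unadjusted p under 0.05; 7 with DESeq2). None of 9 neutrophil and none of 7 T and NK cell markers passed (2 of each list higher at an unadjusted p under 0.05, and 3 and 2 with DESeq2). Yet the neutrophil markers had the largest sum of the blood lists in every library. It was 24915 and 29313 CPM in the Hes1-derived libraries against 8308 and 20516 CPM in the Fgfr3-derived ones. For 7 of the 9 the groups did not overlap, with higher values in Hes1-derived libraries, as for 29.8% of all tested genes. The platelet gene Pf4 stood between 3.10 and 25.1 CPM, and Itgb3 was the only 1 of 9 tested megakaryocyte markers to pass, as lower. Osteoblast markers were lower for 8 of 10, and summed to 5563 to 5699 CPM against 29142 to 34837 CPM. Chondrocyte markers summed to 671 and 2339 CPM in the Hes1-derived libraries against 3866 and 544 CPM in the Fgfr3-derived ones, so that they differed more within a group than between the groups, and none of 8 passed (1 lower at an unadjusted p under 0.05; 0 with DESeq2). Of the remaining lists, 1 of 10 endothelial markers was higher (Pecam1, with 5 at an unadjusted p under 0.05 and 3 with DESeq2). Of 6 tested osteoclast markers, 1 was higher (Acp5) and none lower, with 1 higher and 1 lower at an unadjusted p under 0.05. Ctsk, another osteoclast marker, had 97.2 and 148 CPM in the Hes1-derived libraries against 213 and 202 CPM in the Fgfr3-derived ones. Its log2 fold change was −0.76 (edgeR adjusted p = 0.093), and 3 of the 6 osteoclast markers had negative values. In these bulk libraries, fewer cells of a type and less RNA per cell cannot be told apart.

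The comparison asks how the sorted Hes1-derived and Fgfr3-derived libraries differ in genes for the supply, binding and storage of TGF-beta. These libraries also held RNA of blood cell markers, as given above. Tgfb3, Tgfb2 and Ltbp1 were lower in Hes1-derived libraries, by 4.25-fold, 2.63-fold and 3.02-fold. No receptor gene passed the test, and no member passed as higher. By edgeR's quasi-likelihood test with Benjamini-Hochberg adjustment over all 14330 genes, at a threshold of 0.05, 3 of the 10 genes were lower and 0 were higher, while 6.56% of all tested genes were lower and 5.24% higher. At an unadjusted p under 0.05 the counts were 5 lower and 1 higher, and DESeq2 called the same numbers after adjustment, 5 lower and 1 higher. The libraries of the groups did not overlap for 7 of the 10 genes, 6 with lower and 1 with higher values in Hes1-derived libraries, against 32.1% and 29.8% of all tested genes, or 61.9% in either direction. The median log2 fold change (Hes1-derived minus Fgfr3-derived) of the 10 genes was −0.75, beside −0.02 for all tested genes, and it was −0.02 after scaling to the summed CAR cell markers, 0.02 after scaling to their mean log count and 0.13 after scaling to eGFP reads. The median of all tested genes was then 0.66, 0.69 and 0.83, so that the 10 genes stood −0.68, −0.67 and −0.70 from it, where they stood −0.72 from it with TMM factors. Scaling moves all genes by similar amounts, so this distance changes little by construction and does not test the calls. Under each of these scalings 0 of the 10 genes were called lower.

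**Figure D1:**
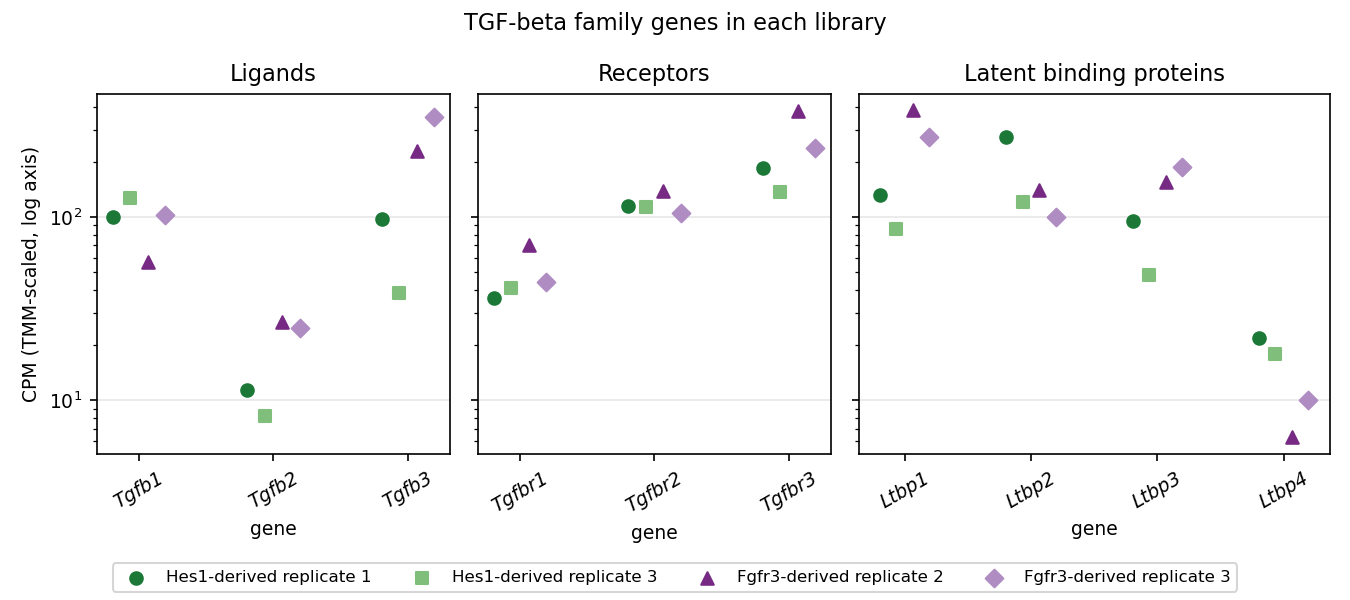
Level of each gene in each of the 4 libraries, as TMM-scaled CPM on a log axis, with 1 point per library and a panel for each role. The points of the Hes1-derived libraries lie below those of the Fgfr3-derived libraries for Tgfb2, Tgfb3, Tgfbr1, Tgfbr3, Ltbp1 and Ltbp3, above them for Ltbp4, and among them for Tgfb1, Tgfbr2 and Ltbp2.

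Tgfb3 (chr12:86056745-86079041, minus strand, GRCm38) encodes the ligand known in mice for its part in fusion of the palate. It had 97.9 and 38.4 CPM in the Hes1-derived libraries, against 229 and 351 CPM in the Fgfr3-derived ones. All Fgfr3-derived values were above both Hes1-derived values, and the Hes1-derived replicates themselves lay 1.35 apart on the log2 scale, where the median gene differed by 0.30. The means were 68.2 ± 42.1 CPM and 290 ± 86.7 CPM (SD, n = 2 each). The log2 fold change was −2.09 ± 0.45 (SE, edgeR adjusted p = 0.030), which ranked 619th by size among all tested genes. On the deposited regularized log2 scale the difference was −1.71. Transcripts annotated on the opposite strand, Gm37804 and Gm48008, cover 4.82% and 7.60% of its exonic length, and no strand setting is given in the sources used here.

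Tgfb2 (chr1:186622792-186705989, minus strand) encodes the ligand whose loss in mice affects the heart, the limbs and the skull. It had the lowest level of the ligand genes, with 11.4 and 8.18 CPM in the Hes1-derived libraries against 26.8 and 24.9 CPM in the Fgfr3-derived ones. The groups did not overlap, and the Hes1-derived replicates lay 0.48 apart on the log2 scale and the Fgfr3-derived ones 0.10. With means of 9.80 ± 2.30 CPM and 25.8 ± 1.33 CPM (SD, n = 2 each), the log2 fold change was −1.40 ± 0.29 (SE, edgeR adjusted p = 0.028). The lowest value rests on 203 reads.

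Tgfb1 (chr7:25687002-25705077, plus strand) encodes the ligand that is abundant in platelets, leukocytes and bone matrix. It had 99.8 and 128 CPM in the Hes1-derived libraries, against 56.6 and 103 CPM in the Fgfr3-derived ones. Fgfr3-derived replicate 3 lay between both Hes1-derived libraries, so that the groups overlapped. Its log2 fold change was 0.51 ± 0.31 (SE, edgeR adjusted p = 0.32). Without Fgfr3-derived replicate 3 it was 1.06 (edgeR adjusted p = 0.045), the only 1 of 16 alternative fits that called it, and without each of the other libraries it lay between 0.17 and 0.68 (edgeR adjusted p between 0.33 and 0.77). Pan-leukocyte markers were lowest in Fgfr3-derived replicate 2, where Tgfb1 was lowest, and highest in Hes1-derived replicate 3, where Tgfb1 was highest, and their part in the level of Tgfb1 was not tested.

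The ligand genes stood in different proportions. Per kilobase of exon (RPKM, CPM divided by the length of all exons of a gene merged), Tgfb3 made up 57.1% and 29.8% of the summed level of the 3 ligand genes in the Hes1-derived libraries, against 81.0% and 80.8% in the Fgfr3-derived ones. Tgfb1 made up 39.0% and 66.5% against 13.4% and 15.9%. Neither share overlapped between the groups, but the Hes1-derived libraries differed widely, and Tgfb1 led in replicate 3 while Tgfb3 led in replicate 1. Shares of a class add up to the whole in each library, so these are not separate results. Tgfb2 took between 3.34% and 5.54% in the 4 libraries, and the groups overlapped. The ratio of Tgfb3 to Tgfb1, which does not depend on how libraries are scaled, was 1.46 and 0.45 in the Hes1-derived libraries against 6.03 and 5.09 in the others, a 6.84-fold difference between the geometric means. With 2 libraries a group an exact two-sided permutation test cannot go below p = 0.333, the value that each of these non-overlapping shares had.

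**Figure D2:**
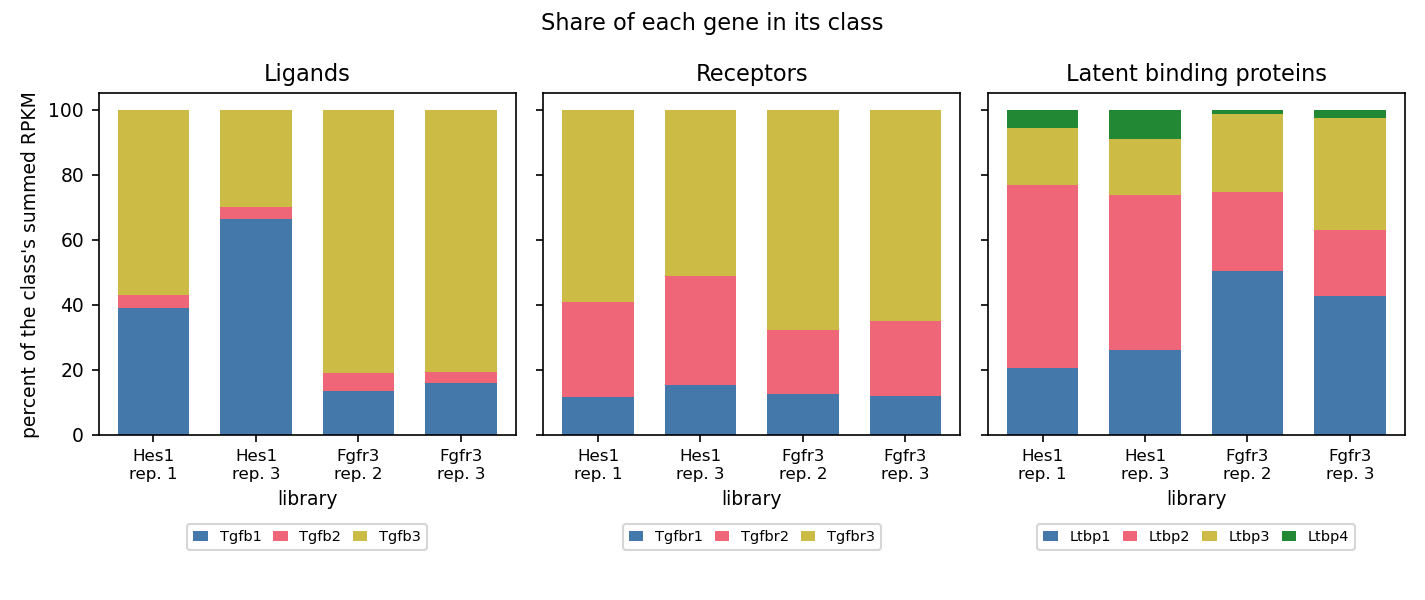
Share of each gene in the summed RPKM of its class, in percent, with 1 stacked bar per library. Tgfb3 fills 81.0% and 80.8% of the ligand bars of the Fgfr3-derived libraries, and Ltbp2 fills 56.2% and 47.6% of the latent binding protein bars of the Hes1-derived libraries.

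None of the 3 receptor genes passed the test. Tgfbr3 (chr5:107106570-107289629, minus strand), which encodes betaglycan, a co-receptor that presents ligand and in particular TGF-beta2 to the type II receptor, had 185 and 137 CPM in the Hes1-derived libraries against 379 and 239 CPM in the Fgfr3-derived ones. The groups did not overlap. The log2 fold change of −0.94 ± 0.29 (SE) missed the threshold (edgeR adjusted p = 0.078), while DESeq2 called the gene lower (log2 fold change −0.91, DESeq2 adjusted p = 0.018). Without Fgfr3-derived replicate 3 edgeR called it too (−1.19, edgeR adjusted p = 0.027), and these were the only 2 of 16 alternative fits that did. It was −0.55 without Fgfr3-derived replicate 2 (edgeR adjusted p = 0.28), −0.24 after scaling to the summed CAR cell markers (edgeR adjusted p = 0.81) and −0.11 after scaling to eGFP reads (edgeR adjusted p = 0.93).

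Tgfbr1 (chr4:47353222-47414931, plus strand) encodes the type I receptor kinase ALK5. It had 36.2 and 41.2 CPM in the Hes1-derived libraries, against 70.0 and 44.3 CPM in the Fgfr3-derived ones. Fgfr3-derived replicate 3 lay just above the Hes1-derived libraries and replicate 2 well above them. Its log2 fold change was −0.56 ± 0.27 (SE, edgeR adjusted p = 0.22), and it was positive after scaling to CAR cell markers (0.20 for their sum, 0.24 for their mean log count) and to eGFP reads (0.37). Tgfbr2 (chr9:116084293-116175360, minus strand) encodes the type II receptor kinase that binds the ligand. It had 114 and 113 CPM in the Hes1-derived libraries, against 139 and 106 CPM in the Fgfr3-derived ones. Both Hes1-derived values fell between the Fgfr3-derived values. Its log2 fold change was −0.11 ± 0.22 (SE, edgeR adjusted p = 0.78), and it was 0.12 without Fgfr3-derived replicate 2, 0.61 and 0.64 after scaling to the sum and to the mean log count of CAR cell markers and 0.77 after scaling to eGFP reads.

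Within the receptor class Tgfbr3 had the highest level per kilobase in all 4 libraries, with 59.2% and 51.1% of the summed RPKM in the Hes1-derived libraries against 67.6% and 64.9% in the Fgfr3-derived ones. Tgfbr2 had 29.2% and 33.5% against 19.9% and 23.0%. The groups overlapped in neither share, in opposite directions. Receptor shares add up to the whole in each library and that of Tgfbr1 changed little, so the opposite directions follow largely from the measure. In CPM the log2 fold change of Tgfbr2 was −0.11. The ratio of Tgfbr3 to Tgfbr2 was 2.03 and 1.52 among Hes1-derived libraries against 3.40 and 2.83 in Fgfr3-derived libraries. Tgfbr1 had between 11.6% and 15.4%, and the groups overlapped.

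The latent binding protein genes did not move as a class. Ltbp1 (chr17:75005568-75392512, plus strand), whose protein binds the latent complex and ties it to fibrillin and fibronectin in the matrix, had 132 and 86.2 CPM in the Hes1-derived libraries against 384 and 274 CPM in the Fgfr3-derived ones. Each Fgfr3-derived library exceeded each Hes1-derived library. The means were 109 ± 32 CPM and 329 ± 78.2 CPM (SD, n = 2 each), and the log2 fold change was −1.60 ± 0.29 (SE, edgeR adjusted p = 0.022), the smallest p of the 10 genes.

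Ltbp3 (chr19:5740904-5758532, plus strand), whose loss in mice disturbs skeletal growth, had 94.7 and 48.5 CPM in the Hes1-derived libraries against 155 and 187 CPM in the Fgfr3-derived ones. It was likewise below the Fgfr3-derived libraries in both Hes1-derived libraries. The log2 fold change of −1.25 ± 0.33 (SE) lay at the threshold (edgeR adjusted p = 0.051) and passed it in 8 of 16 alternative fits, among them DESeq2 (DESeq2 adjusted p = 0.0029) and limma-voom (voom adjusted p = 0.036). It did not pass after scaling to the summed CAR cell markers (−0.71, edgeR adjusted p = 0.45) or to eGFP reads (−0.60, edgeR adjusted p = 0.62). With a library left out it lay between −1.82 and −0.85.

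Ltbp4 (chr7:27305136-27337692, minus strand), whose protein binds TGF-beta1 complexes and takes part in elastic fibre assembly, went the other way. It had 21.9 and 17.8 CPM in the Hes1-derived libraries, against 6.27 and 10.0 CPM in the Fgfr3-derived ones. It was the only 1 of the 10 genes for which both Hes1-derived libraries lay above both Fgfr3-derived libraries. The log2 fold change of 1.29 ± 0.34 (SE) also lay at the threshold (edgeR adjusted p = 0.053), and passed it in 10 of 16 alternative fits, among them DESeq2 (DESeq2 adjusted p = 0.0062) and scaling to the summed CAR cell markers (1.87, edgeR adjusted p = 0.034). It did not pass after scaling to eGFP reads (2.03, edgeR adjusted p = 0.12). With a library left out it lay between 1.00 and 1.71. Its lowest count, 159 reads in Fgfr3-derived replicate 2, has an exact Poisson 95% interval of 135.2 to 185.7, which covers counting error only.

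Ltbp2 (chr12:84783212-84876532, minus strand) encodes the family member that binds fibrillin microfibrils and does not bind latent TGF-beta. It had 274 and 120 CPM in the Hes1-derived libraries, against 141 and 99.4 CPM in the Fgfr3-derived ones. Hes1-derived replicate 1 stood above the other 3 libraries, and replicate 3 lay between the Fgfr3-derived values. With an SE of 0.39 its log2 fold change was 0.71 (edgeR adjusted p = 0.27), and it was −0.00083 without Hes1-derived replicate 1. An antisense transcript on the opposite strand covers 9.34% of its exonic length.

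Set against each other within a library, the latent binding protein genes separated the groups. The ratio of Ltbp1 to Ltbp2 per kilobase was 0.37 and 0.55 in the Hes1-derived libraries against 2.09 and 2.11 in the Fgfr3-derived ones, a 4.67-fold difference. Ltbp2 was the leading latent binding protein gene in both Hes1-derived libraries, with 56.2% and 47.6% of the summed RPKM against 24.2% and 20.3%, and Ltbp1 was the leading gene in both Fgfr3-derived libraries, with 50.5% and 42.7% against 20.6% and 26.2%. Ltbp3 had 17.5% and 17.3% against 23.9% and 34.4%. Ltbp4 had the smallest share in every library, at 5.69% and 8.93% against 1.36% and 2.58%. None of these 4 shares overlapped between the groups, and each had an exact permutation p of 0.333, the smallest that the design allows. Because the shares add up to the whole in each library, a rise of any of them lowers others. They are therefore not 4 separate results. The ratio of Ltbp1 to Ltbp3 was 1.18 and 1.51 against 2.11 and 1.24, and the groups overlapped.

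Over all 10 genes, the order of levels per kilobase differed between the groups. In Fgfr3-derived libraries Tgfb3 was highest at 85.7 ± 25.6 RPKM (SD, n = 2), followed by Tgfbr3 at 47.2 ± 15.2 and Ltbp1 at 30.8 ± 7.32 RPKM. Each of these stood above the next in both libraries. Ltbp3, Tgfb1, Tgfbr2 and Ltbp2, with means between 14.7 and 18.8 RPKM, had ranges over the libraries that overlapped with their neighbours. Within each Fgfr3-derived library, however, Ltbp3 exceeded Tgfb1 (17.0 against 11.2 and 20.6 against 20.4 RPKM). Tgfbr1 at 8.75 ± 2.78, Tgfb2 at 4.46 ± 0.23 and Ltbp4 at 1.26 ± 0.41 RPKM followed, each separate from its neighbours. In Hes1-derived libraries Tgfbr3 (24.7 ± 5.19), Ltbp2 (24.1 ± 13.3), Tgfb1 (22.6 ± 3.91), Tgfb3 (20.2 ± 12.4) and Tgfbr2 (13.9 ± 0.12 RPKM) overlapped with their neighbours. Below Tgfbr2, which was separate from it, came Ltbp1 at 10.2 ± 3.00 RPKM. The ranges of Ltbp1, Ltbp3 and Tgfbr1 overlapped in turn, although Ltbp1 exceeded Ltbp3 within each Hes1-derived library. Ltbp4 at 3.07 ± 0.45 and Tgfb2 at 1.69 ± 0.40 RPKM were the lowest and were separate.

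The calls depended on the libraries and on the scaling. Without Hes1-derived replicate 3 none of the 10 genes passed (Tgfb3 −1.57, Tgfb2 −1.17 and Ltbp1 −1.32, with edgeR adjusted p of 0.065, 0.13 and 0.083), and without Fgfr3-derived replicate 2 only Tgfb3 did (−2.36, edgeR adjusted p = 0.045). Without Hes1-derived replicate 1 Tgfb3 was −2.92 (edgeR adjusted p = 0.014), and without Fgfr3-derived replicate 3 it was −1.71 (edgeR adjusted p = 0.049). Scaling to the summed CAR cell markers moved the median of all genes up by 0.68 on the log2 scale, with a shift of 0.86 for eGFP scaling. Under these the log2 fold change was −1.61 and −1.52 for Tgfb3, −0.76 and −0.63 for Tgfb2 and −0.93 and −0.82 for Ltbp1, and none of the 3 passed (edgeR adjusted p between 0.074 and 0.60). Relative to the median gene the values were −2.27 and −2.35 for Tgfb3, −1.42 and −1.46 for Tgfb2 and −1.59 and −1.65 for Ltbp1. Because scaling moves all genes by similar amounts, these relative values change little by construction and do not show that the calls hold.

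The reads were also counted against eGFP reads, the reporter of the Cxcl12 locus. Per 1000 eGFP reads, Tgfb3 had 14.7 and 12.0 reads in the Hes1-derived libraries against 24.7 and 52.0 in the Fgfr3-derived ones. Ltbp1 had 19.7 and 26.9 against 41.5 and 40.5 reads, and Tgfb2 had 1.71 and 2.55 against 2.89 and 3.68 reads. These 3 genes stayed below in both Hes1-derived libraries, and so did Ltbp3, with 14.2 and 15.1 against 16.7 and 27.7 reads. Ltbp2 had 41.2 and 37.5 against 15.2 and 14.7 reads, so that on this measure it was above in both Hes1-derived libraries, whereas it overlapped in CPM. Tgfbr2 likewise overlapped in CPM but was above here, with 17.1 and 35.2 against 15.1 and 15.6 reads. Ltbp4 had 3.29 and 5.56 against 0.68 and 1.48 reads. Tgfbr3 overlapped on this measure, with 27.8 and 42.9 against 41.0 and 35.3 reads. So did Tgfb1 (15.0 and 39.9 against 6.11 and 15.2) and Tgfbr1 (5.43 and 12.9 against 7.56 and 6.57). Scaling to eGFP reads moved the median of all genes up by 0.86 on the log2 scale, which favours higher values in Hes1-derived libraries for any gene. The share of all genes whose groups do not overlap on this measure was not counted.

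**Figure D3:**
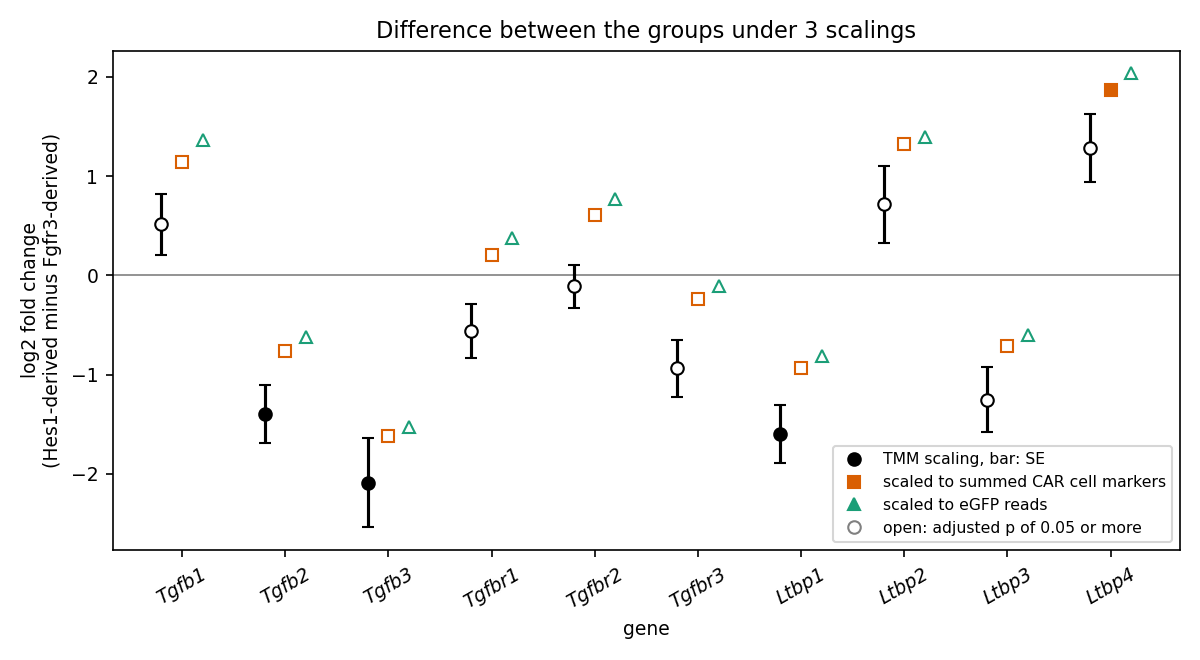
Log2 fold change (Hes1-derived minus Fgfr3-derived) of the 10 genes under 3 scalings, with the SE as bars for TMM scaling and filled symbols for an adjusted p under 0.05. Tgfb3, Tgfb2 and Ltbp1 are filled and below 0 with TMM scaling, their values after scaling to the summed CAR cell markers or to eGFP reads are nearer to 0 and open, and Tgfbr1 and Tgfbr2 lie above 0 under those 2 scalings.

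The other genes of the pathway were read from 5 lists, with 79 genes tested. Of these 34 were lower and 1 was higher in Hes1-derived libraries, while 6.56% of all tested genes were lower and 5.24% higher. The lists were chosen with earlier results of these data known, and their counts do not bear on the members' calls. Osteoblast markers were lower and pan-leukocyte and B lymphocyte markers higher in the same libraries, and their part in these counts was not tested.

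Genes that store and activate latent TGF-beta were lower for 11 of 16 tested genes and higher for none (1 higher at an unadjusted p under 0.05; 1 with DESeq2), with a median log2 fold change of −1.26. Itgb5, an integrin chain that pairs with the alpha-v chain, had 112 and 60.1 CPM in the Hes1-derived libraries against 305 and 425 CPM in the Fgfr3-derived ones (log2 fold change −2.08 ± 0.35 (SE), edgeR adjusted p = 0.019). Fbn2, a fibrillin of the microfibrils to which latent complexes attach, had 26.4 and 15.2 against 119.5 and 82.3 CPM (−2.28 ± 0.33, edgeR adjusted p = 0.016). Itgb3, another partner of the alpha-v chain and also a platelet and osteoclast integrin, had 20.8 and 19.7 against 54.7 and 72.5 CPM (−1.65 ± 0.24, edgeR adjusted p = 0.016). These 3 genes, named for having the smallest p of their list, had no overlap between the groups. The same held for 61.9% of all tested genes. Itgb6, Itgb8 and Adamtsl2 did not pass the low-count filter, and Itgb8 was read in neither Hes1-derived library. The 11 lower genes became 3 when Hes1-derived replicate 3 was left out, 7 without Fgfr3-derived replicate 2 and 0 after scaling to the summed CAR cell markers or to eGFP reads, where the median was −0.61 and −0.45.

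Among genes that respond to TGF-beta in many cell types, 13 of 23 were lower and none higher (0 higher at an unadjusted p under 0.05; 0 with DESeq2), with a median of −1.46. Ccn2, a matricellular protein gene listed in the count table under its older name Ctgf, had 414 and 406 CPM in the Hes1-derived libraries against 2459 and 2076 CPM in the Fgfr3-derived ones (−2.47 ± 0.28 (SE), edgeR adjusted p = 0.013). Timp1, an inhibitor of metalloproteinases that lies within Syn1 on the opposite strand, had 7.03 and 6.61 against 42.6 and 43.2 CPM (−2.65 ± 0.25, edgeR adjusted p = 0.013). Acta2, the smooth muscle actin gene, had 14.9 and 14 against 44.3 and 39.2 CPM (−1.53 ± 0.24, edgeR adjusted p = 0.018). The replicates of each group were close for all 3, which were named for having the smallest p of their list. Col1a1 is both on this list and an osteoblast marker, and Snai2 is also a CAR cell marker. The 13 lower genes became 4 when Hes1-derived replicate 3 was left out, 6 without Fgfr3-derived replicate 2, 2 after scaling to the summed CAR cell markers (median −0.74) and 0 after scaling to eGFP reads (median −0.59).

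Of 20 SMAD transducers and their regulators, 6 were lower and 1 was higher. Pmepa1, which encodes an inhibitor that binds receptor-regulated SMADs, had 97.1 and 71.1 CPM in the Hes1-derived libraries against 249 and 260 CPM in the Fgfr3-derived ones (−1.60 ± 0.23 (SE), edgeR adjusted p = 0.016). Ski, a co-repressor of SMAD complexes, showed −1.30 ± 0.21 (SE, edgeR adjusted p = 0.019), and the inhibitory Smad6, which acts mainly on BMP signals, −1.43 ± 0.25 (SE, edgeR adjusted p = 0.020). The higher gene was Usp15, a deubiquitinase that opposes receptor turnover, with 215 and 189 against 99.4 and 102.8 CPM (1.00 ± 0.20 (SE), edgeR adjusted p = 0.027). It lost the call when either Hes1-derived library or Fgfr3-derived replicate 2 was left out (0.90 to 1.09). The call was also lost after scaling to the sum or the mean log count of CAR cell markers (1.65 and 1.68, edgeR adjusted p = 0.066 and 0.080) and to eGFP reads (1.82, edgeR adjusted p = 0.17). The signal-carrying Smad2 (−0.31), Smad3 (0.03) and Smad4 (−0.52), named after their values were seen, did not pass (edgeR adjusted p = 0.33, 0.96 and 0.15). The median of the list was −0.59, but 0.11 after scaling to the summed CAR cell markers and 0.25 after scaling to eGFP reads, and the 6 lower genes became 0 without Hes1-derived replicate 3 and 3 when replicate 1 was left out.

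Of 11 co-receptors, decoys and receptor-bound proteins, 3 were lower and none higher (0 higher at an unadjusted p under 0.05; 0 with DESeq2). Dab2, an endocytic adaptor that binds the receptors, had 65.7 and 66.1 CPM in the Hes1-derived libraries against 263 and 173 CPM in the Fgfr3-derived ones (−1.73 ± 0.25 (SE), edgeR adjusted p = 0.016). Vasn, a membrane protein gene whose product traps TGF-beta and whose exons share 160 bases with Dnaja3, showed −1.26 ± 0.26 (SE, edgeR adjusted p = 0.029), and the pseudoreceptor Bambi −0.84 ± 0.21 (SE, edgeR adjusted p = 0.044). In the activin branch, 1 of 9 tested genes was lower and none higher (0 higher at an unadjusted p under 0.05 and 0 with DESeq2). With 6.56% of all tested genes lower, a single gene does not set this list apart. The lower gene was Inhbb, an activin chain, with 1.32 and 1.65 against 7.37 and 6.99 CPM (−2.27 ± 0.43 (SE), edgeR adjusted p = 0.025). The medians of these lists were −0.74 and −0.63, but 0.21 and 0.05 after scaling to the summed CAR cell markers and 0.43 and 0.20 after scaling to eGFP reads. Bambi lost its call when any 1 of the 4 libraries was left out (−0.96 to −0.73, edgeR adjusted p between 0.068 and 0.24), and was −0.19 after scaling to the summed CAR cell markers and −0.03 after scaling to eGFP reads. The 3 lower co-receptor and decoy genes became 1 when either Hes1-derived replicate 3 or Fgfr3-derived replicate 2 was left out, and Inhbb lost its call when either Hes1-derived library or Fgfr3-derived replicate 2 was left out (−2.44 to −2.12, edgeR adjusted p between 0.060 and 0.077).

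**Figure D4:**
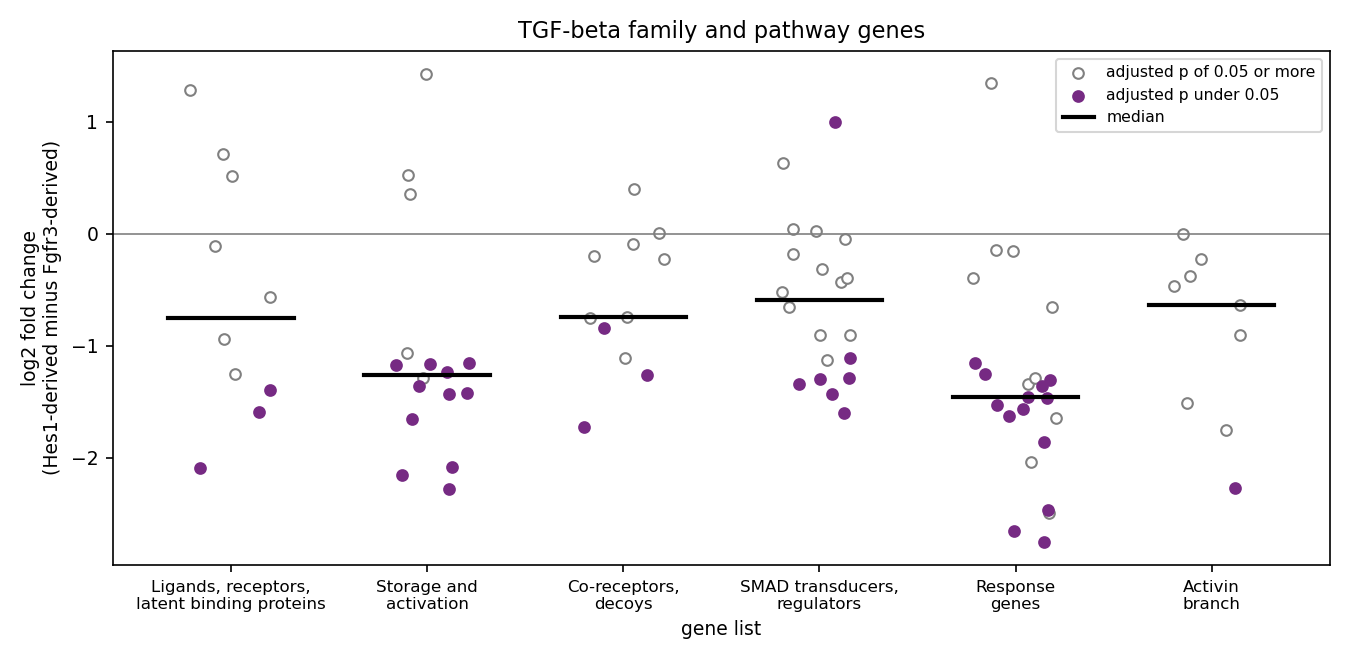
Log2 fold change (Hes1-derived minus Fgfr3-derived, TMM scaling) of each tested gene of the set and of 5 pathway lists, with 1 point per gene, filled for an adjusted p under 0.05, and a bar at the median. The medians are −0.75 for the set, −1.26 for storage and activation and −1.46 for response genes. They are −0.74 for co-receptors and decoys, −0.59 for SMAD transducers and regulators and −0.63 for the activin branch. After scaling to eGFP reads, which is not drawn, the medians of the set and of these last 3 lists are above 0.

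The genes most like each ligand gene over the 4 libraries were found by the root mean square distance of log2 CPM, centred on each gene's mean, among 9192 genes with a mean of at least 10 CPM. Close to Tgfb3 were Hoxb2 (0.091) and Ggt7 (0.10), where the median gene was 1.24 away. Ggt7 had 11.0 and 4.87 CPM in the Hes1-derived libraries against 27.1 and 37.1 CPM in the Fgfr3-derived ones. Closest to Tgfb2 were Postn (0.018), Nsg1 (0.036) and Gjc1 (0.037), with a median of 0.75 over all genes. Postn, the gene of the matrix protein periostin and a member of the response list above, had 141 and 102 against 327 and 299 CPM. Closest to Tgfb1 were Fam129a (0.037), Sap30 (0.049) and Pxn (0.051), with a median of 0.51, and Pxn, which encodes the focal adhesion protein paxillin, had 109.0 and 128.9 against 56.8 and 109.4 CPM. These distances rest on 4 libraries, and many genes share any such pattern.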

How the data were processed

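RNA sequencing of 4 libraries was analysed as bulk data. The series' design text names SMARTer amplification, and the labels' protocols Nextera XT libraries. The submitters' processing notes list build mm10 and, among other tools, HTSeq, DESeq2, Bowtie2 2.2.1 and TopHat2 2.0.13, without their roles. The annotation and strand setting are not given in the sources used here. The deposited counts are whole reads per gene symbol. The deposited signal values are those counts divided by a size factor per library. A further deposited table gives the counts on a regularized log2 scale, as its name says.

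Counts were tested with edgeR 4.0.16 in R 4.3.3 (filter at a minimum count of 10, TMM factors, robust quasi-likelihood fit with 2 residual degrees of freedom, Benjamini-Hochberg over 14330 genes, threshold 0.05). Each SE was taken as the size of the log2 fold change over the root of its F statistic. Exon lengths and positions came from GENCODE M21 (GRCm38), which held all 10 genes, and promoters from RefSeq.

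Alternatives were DESeq2 1.42.0, limma 3.58.1 (voom, and trend on the deposited signal with a pseudocount of 1), other scalings, filters and thresholds, and fits without each library in turn. A scaling to the mean log count of CAR cell markers was chosen after seeing the data. The members, lists and tests were chosen with earlier results of these data known. The text names all members, up to 3 called genes of each pathway list and direction with the smallest p, and the 3 genes nearest to each ligand gene, of which 1 is not reported here. It gives marker lists by their sums and counts. The lists hold 209 entries, 6 of them absent from the count table and 4 found there by older symbols.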

Additional observations from a re-analysis of the deposited data

How the results depend on the processing

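Tgfb2, Tgfb3, Ltbp1, Tgfb1, Tgfbr3, Ltbp3 and Ltbp4 kept their direction in all 16 alternative fits, and the 3 calls held in 11 (Tgfb2), 12 (Tgfb3) and 11 (Ltbp1) of them. The members lower numbered 3, but 5 with DESeq2 and at an adjusted p under 0.10, 0 after scaling to the sum or mean log count of CAR cell markers or to eGFP reads, and 0 (without Hes1-derived replicate 3) to 4 when a library was left out. The members higher numbered 0, but 1 with upper-quartile factors, library totals, either CAR cell marker scaling, no filter, a minimum count of 50, DESeq2, limma-voom, limma-trend and an adjusted p under 0.10, and 0 to 2 when a library was left out.

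Of the pathway genes, the 34 lower became 2, 1 and 0 after scaling to the CAR cell marker sum, their mean log count and eGFP reads, and 8 (without Hes1-derived replicate 3) to 33 with a library left out. The 1 higher became 2 with DESeq2, limma-voom and an adjusted p under 0.10, 0 with eGFP scaling, and 0 to 2 with a library left out. After either CAR cell marker scaling, the 1 higher gene belonged to the storage and activation list, and Usp15 was not called. Across all genes, 44.4% of calls were higher, against 91.6%, 92.1% and 94.5% after scaling to the CAR cell marker sum, their mean log count and eGFP reads.

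Tgfbr1 turned to 0.20, 0.24 and 0.37 and Tgfbr2 to 0.61, 0.64 and 0.77 under the same scalings. With a library left out, Tgfbr2 ranged from −0.25 to 0.12, Ltbp2 from −0.00083 to 1.19, the Tgfb2 share difference from −1.74 to 0.46 percentage points and that of Tgfbr1 from −0.71 to 3.06 points. The cause of these changes was not tested. Fits without a library leave 1 sample in its group, which is then assumed to vary like the other group. No paired analysis was possible because the groups share only replicate number 3.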
